A study of Mus musculus with 30 samples.

Results

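The co-inhibitory genes Btla, Tnfrsf14, Cd274, Pdcd1lg2, Havcr2, Lgals9, Pvr and Vsir, 8 of the 43629 genes in the count table, were followed in bone marrow-derived dendritic cells (BMDCs) around exposure to extracellular adenosine triphosphate (ATP). They were picked by name, with earlier results of these data in view, and each had 1 row in the table, and all 8 had enough reads in every comparison to be tested. There were 30 libraries, 5 cultures from WT mice and 5 from mice labelled Cacnb3-/-, each read in 3 sets whose names end in ctrl, 0p5h and 24h. A culture here means the libraries that share a number in their names. The labels do not say whether these share a mouse or whether different numbers are different mice, so p-values measure the spread between these samples. ATP was given at 500 µM as a pulse of 30 min. The labels disagree on the first pair of sets. Libraries named ctrl carry a treatment entry for 30-min ATP and those named 0p5h carry one for vehicle, so which of the pair is the untreated one cannot be settled here. The 24h libraries carry an ATP entry of 24 h in both places. Groups below follow the library names. Per the study's methods the cells were grown from bone marrow with GM-CSF. WT mice were C57BL/6J, while the Cacnb3-/- line was kept on C57BL/6N, so genotype and substrain cannot be told apart. The deletion is present in every cell of the mouse, and the mice were adults of both sexes.

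BTLA is an inhibitory receptor of the immunoglobulin family, and HVEM, the product of Tnfrsf14, is its ligand on neighbouring cells. PD-L1 (Cd274) and PD-L2 (Pdcd1lg2) are the ligands of PD-1, which restrains activated T cells. TIM-3 (Havcr2) is a receptor that galectin-9 (Lgals9) can bind, PVR (CD155) is the ligand of TIGIT, CD96 and CD226, and VISTA (Vsir) is a B7-like molecule found mainly on myeloid cells and T cells. Dendritic cells carry both receptors and ligands of this kind, and their balance with co-stimulatory molecules sets how strongly T cells respond.

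On GRCm38, Btla (ENSMUSG00000052013) lies at chr16:45224315-45252895 on the plus strand and Tnfrsf14 (ENSMUSG00000042333) at chr4:154922210-154928563 on the minus strand. Cd274 (ENSMUSG00000016496) and Pdcd1lg2 (ENSMUSG00000016498) are neighbours on the plus strand, at chr19:29367455-29388095 and chr19:29410919-29471157. Havcr2 (ENSMUSG00000020399) lies at chr11:46454935-46481255, plus strand, and Lgals9 (ENSMUSG00000001123) at chr11:78962974-78984946, minus strand. Pvr (ENSMUSG00000040511) lies at chr7:19903578-19921160, minus strand, and Vsir (ENSMUSG00000020101) at chr10:60346851-60372684, plus strand.

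The promoter windows of the BTLA and HVEM pair and of the neighbouring PD-1 ligand genes are printed because the first pair had the largest fitted genotype differences among the 8 genes in ctrl and 0p5h, though not in 24h, and the second pair had the highest levels. RefSeq windows on GRCm38, the build of the counts, were matched for 7 of the 8 genes, with Pvr missing. Each runs 5' to 3' on the strand of its gene, from 250 bases before to 50 bases after the transcription start. Capitals mark matches on either strand to 6 motifs that were searched.
Btla (chr16:45224087-45224386, plus strand): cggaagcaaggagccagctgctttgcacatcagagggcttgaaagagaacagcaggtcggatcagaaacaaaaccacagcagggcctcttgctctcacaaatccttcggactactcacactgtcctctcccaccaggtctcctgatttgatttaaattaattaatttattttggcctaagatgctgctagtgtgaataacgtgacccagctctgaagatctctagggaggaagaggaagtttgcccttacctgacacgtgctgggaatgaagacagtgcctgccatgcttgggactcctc
Tnfrsf14 (chr4:154928028-154928327, minus strand): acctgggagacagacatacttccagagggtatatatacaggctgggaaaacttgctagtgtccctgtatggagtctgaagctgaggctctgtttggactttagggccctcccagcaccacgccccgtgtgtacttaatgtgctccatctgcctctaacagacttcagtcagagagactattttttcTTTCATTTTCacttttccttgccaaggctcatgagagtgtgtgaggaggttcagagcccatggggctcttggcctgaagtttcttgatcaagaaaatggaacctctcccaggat
Cd274 (chr19:29367188-29367487, plus strand): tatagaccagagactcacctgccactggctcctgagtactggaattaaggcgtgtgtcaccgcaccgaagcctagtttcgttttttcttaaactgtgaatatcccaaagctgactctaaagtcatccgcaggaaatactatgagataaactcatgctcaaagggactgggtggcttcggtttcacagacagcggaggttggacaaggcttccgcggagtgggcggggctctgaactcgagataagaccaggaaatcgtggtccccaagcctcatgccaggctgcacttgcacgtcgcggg
Pdcd1lg2 (chr19:29410669-29410968, plus strand): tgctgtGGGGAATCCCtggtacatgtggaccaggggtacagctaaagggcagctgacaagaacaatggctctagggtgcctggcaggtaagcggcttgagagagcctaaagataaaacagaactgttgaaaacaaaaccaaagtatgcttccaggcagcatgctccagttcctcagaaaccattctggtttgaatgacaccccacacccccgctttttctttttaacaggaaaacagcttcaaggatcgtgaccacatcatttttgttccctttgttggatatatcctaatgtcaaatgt
The motifs, 6 in all, were the AP-1 site (TGANTCA), the cyclic AMP response element (TGACGTCA), the interferon-stimulated response element or ISRE (GAAA, any 2 bases, GAAA), the GAS element (TTCNNNGAA), the NF-kB site and the TATA box (TATAAA). The Btla and Cd274 windows held no match to any of them. The Tnfrsf14 window held an ISRE match whose first base lay 64 bases before the start, and Lgals9 held a pair of such matches. An ISRE match was found in 3.44% of the 32851 windows in the RefSeq table. The Pdcd1lg2 window held an NF-kB match beginning 244 bases before the start, a motif found in 4.51% of windows. The Havcr2 window held an AP-1 match, which 7.81% of windows contain, and the Vsir window held none of the 6. These matches describe letters and say nothing of whether a factor binds.

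Total counts ran from 8237393 to 32164225 per library, with a median of 19556920. Reads of Cacnb3 itself were present in every library, at 1030 to 2140 CPM, read counts scaled to the library total, in WT and 573 to 1330 CPM in cultures labelled Cacnb3-/-. The counts are per gene and do not show which exons were read, so they do not check the label, and Cacnb3-/- below means cultures labelled so. All 6 dendritic cell markers (Itgax, H2-Ab1, Cd74, Zbtb46, Flt3, Ciita) were read in all 30 libraries, with summed levels of 8180 to 25700 CPM. B cells carry much Btla, and the 5 B cell markers summed to between 0.614 and 5.1 CPM, with Ms4a1 at 0 reads in 4 libraries and Pax5 in 9. T cell markers summed to at most 2.36 CPM over 6 genes. A culture of each genotype stood apart, WT p974s864 and Cacnb3-/- p974s865. The WT culture's median correlation with the other libraries of its group was 0.962 to 0.964 in the 3 sets, the lowest of the WT cultures in each. The Cacnb3-/- culture was the lowest of its genotype in 0p5h, at 0.966, and at 24h had 0.954, the lowest of all 30 libraries. WT culture p974s864 also had the lowest value of the WT cultures in all 3 sets for 6 of the 8 genes (Btla, Tnfrsf14, Cd274, Pdcd1lg2, Lgals9 and Pvr), where 13.9% of the 13755 genes kept over all libraries behaved this way. Leaving out 1 culture at a time is reported where it changes a call.

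Levels between genes were compared as RPKM, which also divides by exon length. Cd274 had the highest mean over the 30 libraries, 144 RPKM with a range of 86.8 to 260, above 97.4% of the genes kept. Pdcd1lg2 followed at 110 RPKM, and Cd274 was above it in 27 of 30 libraries. Vsir averaged 35.3 RPKM, below Pdcd1lg2 and above Pvr in all 30. Pvr, Lgals9 and Tnfrsf14 averaged 11.7, 10.8 and 10.5 RPKM and could not be put in order, since Pvr was above Lgals9 in 15 of 30 libraries and Lgals9 above Tnfrsf14 in 19. Havcr2 averaged 7.49 RPKM and was below Tnfrsf14 in 17 of 30. Btla was the lowest at 1.27 RPKM, below Havcr2 in all 30 libraries. It was also the most variable of the 8, with 62.3-fold between its lowest and highest library, against 2.92-fold for Pdcd1lg2 and 2.99-fold for Cd274. It rested on 7 to 628 reads per library.

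**Figure D1:**
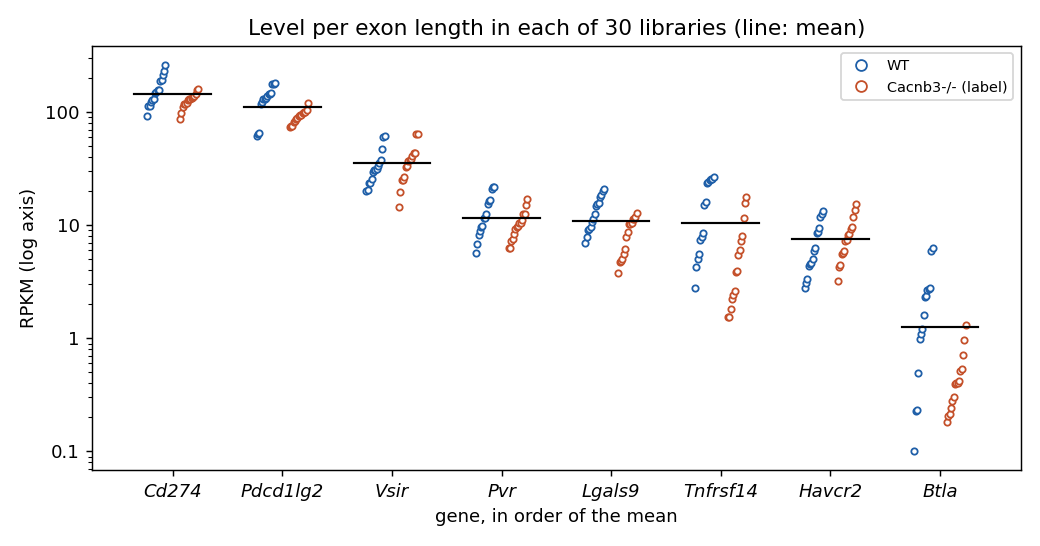
RPKM (log axis) of the 8 genes in each of the 30 libraries, ordered by the mean, which is drawn as a line; blue points are WT and orange points are labelled Cacnb3-/-. The means fall from 144 RPKM for Cd274 to 1.27 RPKM for Btla, whose WT and Cacnb3-/- points spread most widely.

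In these samples the mean level of Btla was lower in Cacnb3-/- than in WT in ctrl and 0p5h, with overlap between cultures. Its change to 24h had opposite directions in the genotypes. As it leads the list and was picked with its pattern known, its values are given as a description with no test. In the ctrl libraries the WT cultures p974s846, p974s850, p974s855, p974s856 and p974s864 had 8.9, 5.24, 19.1, 7.79 and 0.758 CPM of Btla. The cultures labelled Cacnb3-/-, p974s843, p974s851, p974s852, p974s853 and p974s865, had 0.919, 2.3, 0.787, 1.67 and 0.592 CPM. In 4 of the 5 WT cultures Btla was above every Cacnb3-/- culture, and the fifth, p974s864, lay among them. The genotypes thus overlapped, as those of all 8 genes did in each set, while they did not overlap for 1.93% of all genes in ctrl, 2.05% in 0p5h and 6.51% in 24h. Means were 8.36 ± 6.78 CPM in WT and 1.25 ± 0.714 CPM in Cacnb3-/- (SD, n = 5 each), 6.67-fold apart. The fitted log2 fold change of Cacnb3-/- against WT was -2.74 with a standard error (SE) of 0.66, and it ran from -3.07 to -2.18 when 1 culture at a time was left out, the latter without WT p974s855. In bulk RNA, fewer cells of a type and less RNA per cell cannot be told apart. Summed B cell markers in ctrl were 0.614 to 5.1 CPM in WT and 1.75 to 3.54 CPM in Cacnb3-/-, and their part in the result was not tested.

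In the 0p5h libraries the same order held. WT values of Btla were 9, 3.58, 20.5, 7.58 and 0.739 CPM in the culture order above, and Cacnb3-/- values were 1.32, 1.28, 0.67, 1.36 and 0.702 CPM. Again 4 of 5 WT cultures exceeded all Cacnb3-/- cultures. The log2 fold change of Cacnb3-/- against WT was -2.93 (SE 0.67), -2.25 without WT culture p974s855 and -3.24 without p974s864. Between ctrl and 0p5h Btla was higher in 2 and lower in 3 of 5 cultures of either genotype, with mean log2 changes of -0.10 ± 0.26 in WT and -0.12 ± 0.53 in Cacnb3-/- (SD, n = 5).

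In the 24h libraries the fitted genotype difference was smaller. WT values of Btla were 3.93, 1.61, 8.77, 3.2 and 0.329 CPM, below the same culture's ctrl and 0p5h values in 5 of 5 cultures. Cacnb3-/- values were 1.73, 4.31, 1.32, 3.14 and 0.99 CPM, above the same culture's ctrl and 0p5h values in 5 of 5. Among all genes, 11.6% were lower at 24h than in ctrl and 14.5% lower than in 0p5h in all WT cultures, and 14.4% and 16.8% were higher in all Cacnb3-/- cultures. Only 1 WT culture, p974s855, was then above all Cacnb3-/- cultures, and the log2 fold change between genotypes was -0.62 (SE 0.65), turning to 0.06 without that culture and reaching -1.01 without Cacnb3-/- p974s851. With the trend in base composition removed, it was -1.14 (SE 0.67). From 0p5h to 24h the level in WT went to between 0.423 and 0.451 of its earlier value, a mean log2 change of -1.19 ± 0.0365. From ctrl to 24h the mean log2 change was -1.30 ± 0.23 in WT. In Cacnb3-/- the 24h level was 1.67 to 1.88 times the ctrl level, a mean log2 change of 0.84 ± 0.09, and 1.31 to 3.36 times the 0p5h level, a mean of 0.96 ± 0.55 (SD, n = 5 cultures each).

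**Figure D2:**
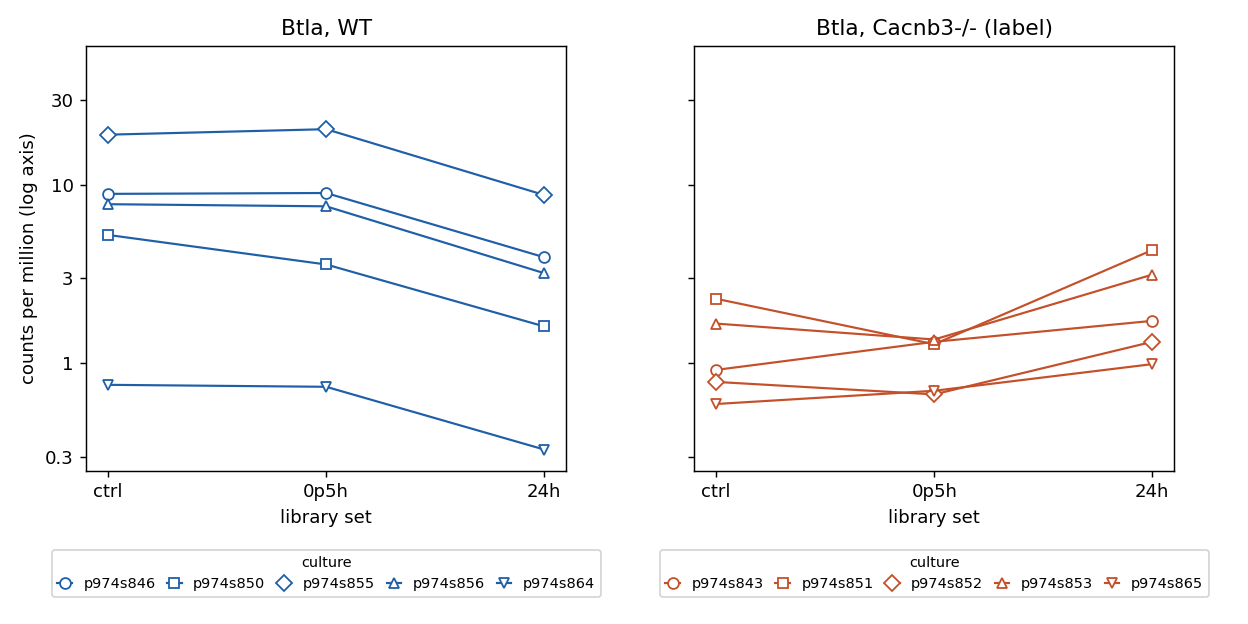
Btla in CPM (log axis) in the ctrl, 0p5h and 24h libraries of each culture, WT on the left and labelled Cacnb3-/- on the right, with 1 line per culture. All 5 WT lines end lower at 24h than at 0p5h (0.423 to 0.451 of the level) and all 5 Cacnb3-/- lines end higher (1.31 to 3.36 times), with WT culture p974s864 at the level of the Cacnb3-/- cultures or below throughout.

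Fewer genes combined both directions. A lower 24h than ctrl value in 5 of 5 WT cultures with a higher one in 5 of 5 Cacnb3-/- cultures was found in 26 of 13536 genes (0.192%), and for 24h against 0p5h in 13 of 13424 (0.0968%). Btla is in both counts by its choice. Its fitted difference in log2 change between genotypes was 2.12 (SE 0.99) for 24h against ctrl and 2.32 (SE 0.997) for 24h against 0p5h. With the culture as a replicate block the latter was 2.29 (SE 0.26). The set changes in the blocked fit were -1.20 (SE 0.11) in WT and 1.08 (SE 0.25) in Cacnb3-/- for 24h against 0p5h.

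Counts limited the lower values. In WT culture p974s864 Btla had 16 reads in 0p5h and 7 at 24h, with exact 95% Poisson intervals of 0.423 to 1.2 CPM and 0.132 to 0.677 CPM, which overlapped, so its factor of change is loosely known. Cacnb3-/- values rested on 9 to 86 reads. In culture p974s852 the interval was 0.377 to 1.45 CPM in ctrl and 0.739 to 2.18 CPM at 24h, which overlapped. Overlap was also seen in p974s843, at 0.561 to 1.42 CPM in ctrl and 0.921 to 2.96 CPM at 24h. The same held in p974s853, at 1.09 to 2.44 CPM and 2.15 to 4.44 CPM. Of the Cacnb3-/- cultures only p974s851 had intervals apart, 1.58 to 3.25 CPM in ctrl and 3.45 to 5.32 CPM at 24h. Intervals cover counting error only. Base composition also differed between these samples. Btla exons hold 40.8% GC, lower than in all but 7.54% of the genes kept. The log2 level of genes sloped with GC by -0.541 to -0.373 per 10 percentage points in 4 of the 5 Cacnb3-/- libraries at 24h, against -0.000286 to 0.546 in the WT libraries at 24h. In the remaining culture, p974s865, the slope was 0.0516 at 24h, and its 14 reads of Btla in ctrl and 24 at 24h had overlapping intervals. Slopes in Cacnb3-/- ran from -0.429 to 0.183 in ctrl and from -0.358 to 0.208 in 0p5h. Culture p974s852 held the lowest of each and was at -0.541 at 24h. With the GC trend removed the Cacnb3-/- change was 0.61 (SE 0.47) for 24h against ctrl and 0.75 (SE 0.42) for 24h against 0p5h, from 0.90 (SE 0.48) and 1.11 (SE 0.42) as fitted. The WT changes were -1.10 (SE 0.79) and -1.13 (SE 0.83) on removal, from -1.21 (SE 0.77) and -1.21 (SE 0.80).

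After the mean of each culture was subtracted, the genes whose log2 CPM followed Btla most closely over the 30 libraries were Tgfbi, Orm1, Gda, Plac8 and Zdhhc21, with Pearson correlations of 0.86, 0.86, 0.795, 0.794 and 0.786. The 30 points come from 10 cultures and share depth and base composition, so this is a description only. Without that subtraction 1 of these 5, Orm1, was still among the 5 closest. Plac8, for example, averaged 5.91 ± 4.39 CPM in WT ctrl and 3.53 ± 2.44 at 24h, and 1.18 ± 0.687 CPM in Cacnb3-/- ctrl and 2.54 ± 1.19 at 24h (SD, n = 5). Orm1, which encodes the acute-phase protein orosomucoid 1, averaged 33.1 ± 28.4 CPM in WT ctrl against 3.76 ± 2.56 CPM in Cacnb3-/- ctrl.

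The other 7 genes were tested with edgeR. Adjusted p-values are Benjamini-Hochberg values over every gene in the fit, and calls needed an adjusted p below 0.05 with a change of at least 2-fold. None of the 7 was called in any of the 12 comparisons by edgeR, DESeq2 or limma-voom. Over all genes, the share called by edgeR was 0.176% for 0p5h against ctrl, 0.0152% for 24h against ctrl and 0.639% for 24h against 0p5h in WT. In Cacnb3-/- it was 0.29%, 0% and 0.66% for the same comparisons, and it was 0% in each comparison of the genotypes and of their changes. At an unadjusted p below 0.05, edgeR gave 0, 1 and 3 of the 7 genes in the WT comparisons in that order, 1, 0 and 1 in Cacnb3-/-, 3, 0 and 0 between genotypes in ctrl, 0p5h and 24h, and 0, 0 and 0 for the differences in change. The shares of all genes were 4.54%, 8.39% and 11.2% in WT, 3.99%, 10.8% and 17.5% in Cacnb3-/-, 16.6%, 16.4% and 38.4% between genotypes and 0.223%, 4.86% and 5.88% for the differences in change. With the culture as a replicate block, 2 of the 7 genes had an adjusted p below 0.05 at any fold for 0p5h against ctrl in WT, where 5.96% of all genes did, and 1 in Cacnb3-/-, where 2.35% did. For 24h against ctrl in WT there was 1, where 6.05% of all genes passed. In Cacnb3-/- only Vsir of the 7 passed for 24h against ctrl, at rank 523 by p. At least 970 of the 12452 genes tested passed in that fit, as the gene at that rank by p did. For 24h against 0p5h there were 4 in WT and 3 in Cacnb3-/-, where 11.3% and 28.6% of all genes passed.

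**Figure D3:**
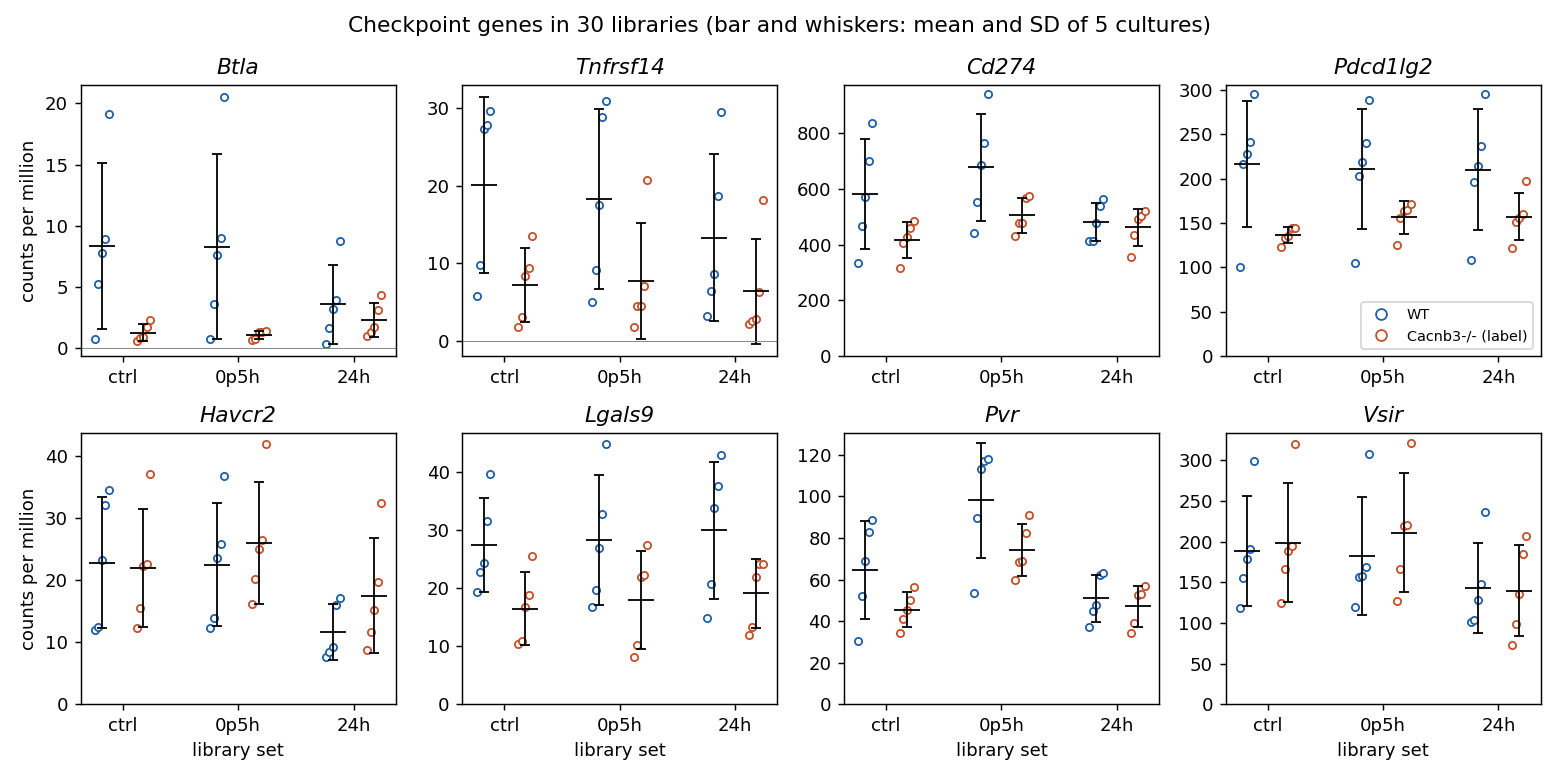
CPM of each of the 8 genes in the 5 WT (blue) and 5 Cacnb3-/- (orange) cultures of each library set, with the mean as a horizontal bar and the SD as whiskers. The genotypes overlap for every gene in every set, and Pvr at 0p5h (WT 98.3 ± 27.7, Cacnb3-/- 74.2 ± 12.5 CPM) stands above both its ctrl and 24h groups.

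HVEM transcripts, from the gene of the BTLA ligand, differed widely between cultures. In WT, Tnfrsf14 had 27.9, 9.81, 27.3, 29.7 and 5.81 CPM in ctrl, 17.5, 9.14, 28.9, 31 and 4.95 CPM in 0p5h and 8.6, 6.4, 18.7, 29.6 and 3.19 CPM in 24h, in the culture order given for Btla. In Cacnb3-/- it had 9.38, 8.35, 1.81, 3.02 and 13.5 CPM in ctrl, 4.47, 6.99, 1.79, 4.51 and 20.7 CPM in 0p5h and 2.79, 6.26, 2.11, 2.55 and 18.2 CPM in 24h. The genotypes overlapped in each set, and culture p974s865 was the highest of the Cacnb3-/- cultures in all of them. The log2 fold change of Cacnb3-/- against WT was -1.44 (SE 0.55, adjusted p = 0.262) in ctrl, -1.23 (SE 0.61, adjusted p = 0.331) in 0p5h and -0.99 (SE 0.67, adjusted p = 0.285) in 24h. Without Cacnb3-/- culture p974s865 the 24h value was -1.88 (SE 0.60, adjusted p = 0.0325), which was called, as were 8.83% of all genes in that fit. Over all fits that left out 1 culture the 24h value ran from -1.88 to -0.47, with adjusted p from 0.0325 to 0.654, and the 0p5h value from -2.01 to -0.96. In WT the 24h level was below the 0p5h level in 5 of 5 cultures, a direction shown by 14.5% of all genes, with a log2 fold change of -0.47 (SE 0.60, adjusted p = 0.845). With the replicate block it was -0.56 (SE 0.13, adjusted p = 0.0289). In Cacnb3-/- 4 of 5 cultures were lower.

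Cd274, which encodes PD-L1, was higher in 0p5h than in ctrl in 10 of 10 cultures, a direction shown by 3.88% of all genes. WT cultures had 701, 466, 836, 570 and 333 CPM in ctrl, 763, 551, 941, 684 and 443 in 0p5h and 537, 478, 564, 413 and 412 in 24h. Cacnb3-/- cultures had 426, 407, 459, 483 and 315 CPM in ctrl, 479, 479, 566, 575 and 430 in 0p5h and 436, 521, 504, 490 and 356 in 24h. The step from ctrl to 0p5h was small in both, 1.09 to 1.33 times in WT and 1.12 to 1.37 times in Cacnb3-/-. Its log2 fold change in WT was 0.23 (SE 0.26, adjusted p = 0.9997), and 0.25 (SE 0.05, adjusted p = 0.0120) with the replicate block. In Cacnb3-/- it was 0.26 (SE 0.15, adjusted p = 0.99995), and 0.27 (SE 0.07, adjusted p = 0.0727) with the block. From 0p5h to 24h WT cultures were lower in 5 of 5, with a log2 fold change of -0.49 (SE 0.19, adjusted p = 0.341) and of -0.45 (SE 0.11, adjusted p = 0.0287) with the block. Cacnb3-/- cultures were lower in 4 of 5, by a mean log2 change of -0.14 ± 0.15 (SD, n = 5). The difference between these changes was 0.36 (SE 0.24, adjusted p = 0.690), and its adjusted p with the block was 0.152.

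Pdcd1lg2, which encodes PD-L2, had no adjusted p below 0.05 between sets within a genotype, by edgeR with or without the replicate block. WT values were 228, 217, 295, 241 and 101 CPM in ctrl, 219, 203, 289, 240 and 105 in 0p5h and 237, 196, 296, 214 and 108 in 24h. Cacnb3-/- values were 123, 145, 136, 144 and 133 CPM in ctrl, 125, 165, 164, 172 and 156 in 0p5h and 122, 197, 151, 160 and 156 in 24h. In 4 of the 5 WT cultures it lay above all Cacnb3-/- cultures in ctrl and 0p5h, in 3 of 5 at 24h, and in WT culture p974s864 it lay below all of them each time. The log2 fold change of Cacnb3-/- against WT was -0.64 (SE 0.22, adjusted p = 0.249) in ctrl, -0.42 (SE 0.22, adjusted p = 0.350) in 0p5h and -0.41 (SE 0.23, adjusted p = 0.195) in 24h. Without WT culture p974s864 the values were -0.82 (SE 0.12, adjusted p = 0.0121) in ctrl, -0.60 (SE 0.14, adjusted p = 0.0833) in 0p5h and -0.56 (SE 0.17, adjusted p = 0.0419) in 24h, all under 2-fold. In those fits 3.09% of all genes in ctrl and 18.7% in 24h had an adjusted p below 0.05. Leaving out WT p974s855 instead gave -0.51 (adjusted p = 0.535) in ctrl and -0.25 (adjusted p = 0.437) in 24h. As p974s864 had the lowest WT values, leaving it out had to widen the difference. Within WT the mean log2 change over any pair of sets was between -0.0336 and -0.00556, with SDs of at most 0.122. In Cacnb3-/- the 0p5h value was above the ctrl value in 5 of 5 cultures, as for 9.76% of all genes, by a mean log2 change of 0.19 ± 0.10, with a fitted 0.18 (SE 0.12, adjusted p = 0.99995) and 0.18 (SE 0.06, adjusted p = 0.213) with the block.

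The summed level of 10 mature migratory dendritic cell markers, among them Ccr7, Fscn1, Ccl22 and Cacnb3 itself, had a lower median in Cacnb3-/- in each set. It was 18100 to 33200 CPM in WT and 14400 to 21200 CPM in Cacnb3-/- in ctrl, and 26400 to 34700 against 15800 to 26200 CPM in 24h. WT culture p974s864 had the lowest sum of the WT cultures in each set, as it had for both PD-1 ligands. The 8 macrophage markers summed to 341 to 1040 CPM in WT and 651 to 1110 CPM in Cacnb3-/- in ctrl. The part of these marker levels in the results was not tested.

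TIM-3 transcripts (Havcr2) were lower in 24h than in 0p5h in 10 of 10 cultures, and lower than in ctrl in 10 of 10, directions shown by 6.12% and 3.68% of all genes. WT cultures had 32, 12.5, 34.4, 23.2 and 11.9 CPM in ctrl, 25.7, 12.3, 36.7, 23.6 and 13.8 in 0p5h and 16, 8.41, 17.1, 7.65 and 9.16 in 24h. Cacnb3-/- cultures had 37, 15.5, 12.2, 22.3 and 22.6 CPM in ctrl, 41.9, 26.4, 16.1, 20.1 and 25 in 0p5h and 32.3, 15.1, 8.71, 19.6 and 11.7 in 24h. In WT the log2 fold change for 24h against ctrl was -0.95 (SE 0.34, adjusted p = 0.484), and -0.90 (SE 0.16, adjusted p = 0.0121) with the replicate block. Against 0p5h it was -0.93 (SE 0.33, adjusted p = 0.294), and -0.90 (SE 0.15, adjusted p = 0.00592) with the block. In Cacnb3-/- it was -0.56 (SE 0.34, adjusted p = 0.389) against 0p5h, and -0.62 (SE 0.15, adjusted p = 0.0117) with the block. Against ctrl the Cacnb3-/- value was -0.34 (SE 0.36, adjusted p = 0.627), and -0.37 (SE 0.15, adjusted p = 0.123) with the block. The difference between genotypes in the change to 24h from ctrl was 0.61 (SE 0.53, adjusted p = 0.769). At 24h the log2 fold change of Cacnb3-/- against WT was 0.58 (SE 0.35, adjusted p = 0.229), and 2 of 5 Cacnb3-/- cultures lay above all WT cultures.

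Galectin-9 transcripts (Lgals9) were higher at 24h than in ctrl in some cultures and lower in others. WT cultures had 24.2, 22.7, 39.5, 31.5 and 19.3 CPM in ctrl, 26.9, 19.7, 44.8, 32.7 and 16.8 in 0p5h and 37.5, 20.7, 33.8, 42.8 and 14.8 in 24h. Cacnb3-/- cultures had 16.8, 18.8, 10.3, 10.8 and 25.4 CPM in ctrl, 22.3, 21.9, 8.12, 10.1 and 27.4 in 0p5h and 24.1, 21.9, 11.9, 13.2 and 24.1 in 24h. Means were lower in Cacnb3-/- in each set, by log2 fold changes of -0.71 (SE 0.26, adjusted p = 0.259) in ctrl, -0.63 (SE 0.35, adjusted p = 0.373) in 0p5h and -0.64 (SE 0.30, adjusted p = 0.137) in 24h. Without WT culture p974s864 the 24h value was -0.81 (SE 0.26, adjusted p = 0.0491), under 2-fold. In that fit 18.7% of all genes had an adjusted p below 0.05. As p974s864 had the lowest WT values of Lgals9, leaving it out had to widen the difference. Over all fits that left out 1 culture the 24h value ran from -0.81 to -0.48, with adjusted p from 0.0491 to 0.307.

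Pvr, which encodes the ligand of TIGIT, was highest in the 0p5h libraries. WT cultures had 83.1, 52.3, 88.7, 68.7 and 30.6 CPM in ctrl, 113, 89.6, 118, 117 and 53.4 in 0p5h and 63, 47.8, 62.2, 44.8 and 37.2 in 24h. Cacnb3-/- cultures had 45.3, 41.2, 50.4, 56.6 and 34.2 CPM in ctrl, 59.8, 68.9, 82.2, 91.3 and 68.6 in 0p5h and 39.1, 52.6, 53.2, 56.9 and 34.3 in 24h. It was higher in 0p5h than in ctrl in 10 of 10 cultures, by 1.33 to 1.74 times in WT and 1.32 to 2.01 times in Cacnb3-/-, and lower in 24h than in 0p5h in 10 of 10. The log2 fold change for 0p5h against ctrl was 0.62 (SE 0.29, adjusted p = 0.9997) in WT and 0.69 (SE 0.16, adjusted p = 0.199) in Cacnb3-/-. With the replicate block these were 0.64 (SE 0.06, adjusted p = 0.000155) and 0.70 (SE 0.08, adjusted p = 0.00200). For 24h against 0p5h they were -0.94 (SE 0.22, adjusted p = 0.0738) in WT and -0.64 (SE 0.17, adjusted p = 0.114) in Cacnb3-/-, and with the block -0.91 (SE 0.11, adjusted p = 0.00140) and -0.65 (SE 0.10, adjusted p = 0.00125). Without WT culture p974s864 the WT value was -1.01 (SE 0.15, adjusted p = 0.0139), which was called, as were 0.564% of all genes, and over all fits that left out 1 culture the adjusted p ran from 0.0139 to 0.333. The difference between genotypes in the log2 change from 0p5h to 24h was 0.30 (SE 0.29, adjusted p = 0.749). DESeq2 without a block gave Pvr -0.95 (adjusted p = 0.00356) in WT and -0.64 (adjusted p = 0.0257) in Cacnb3-/- for 24h against 0p5h. For 0p5h against ctrl it gave 0.62 (adjusted p = 0.904) in WT and 0.70 (adjusted p = 0.0156) in Cacnb3-/-. All were under 2-fold.

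**Figure D4:**
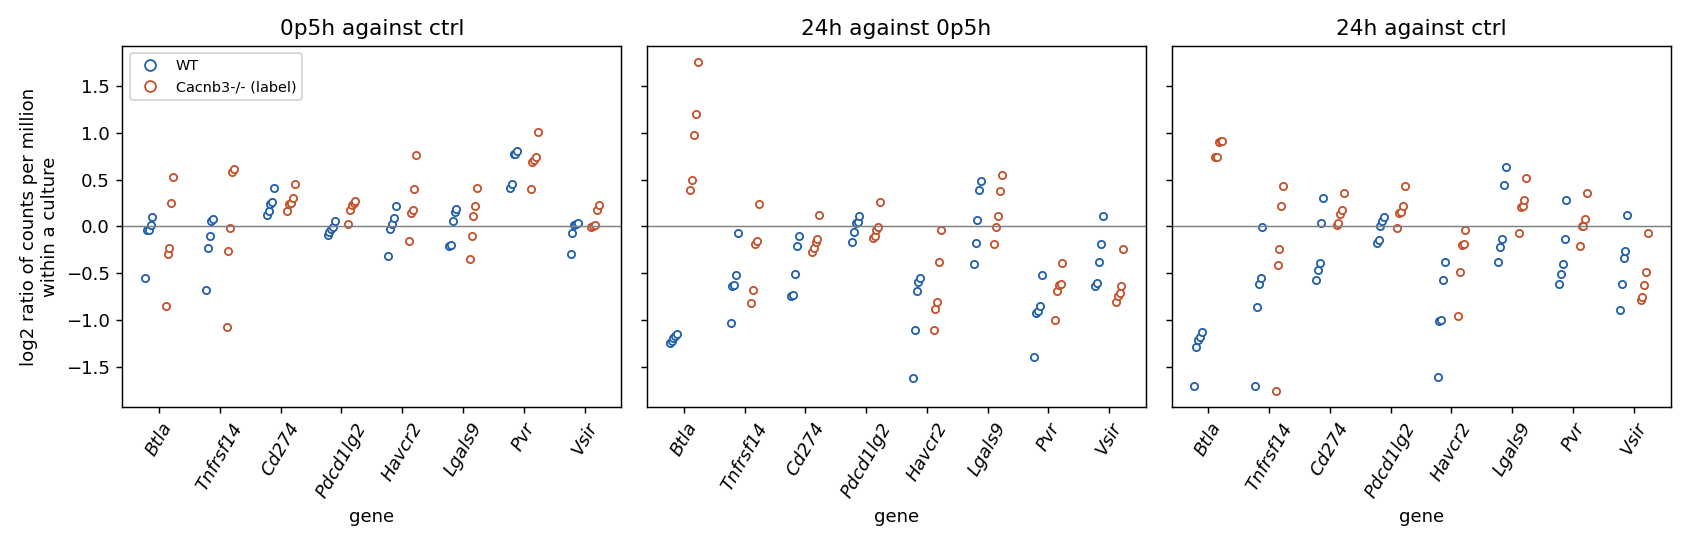
Log2 ratio of CPM between sets within each culture for the 8 genes, with WT in blue and Cacnb3-/- in orange. Btla points of the genotypes lie on opposite sides of 0 for 24h against 0p5h and against ctrl, Pvr lies above 0 in all 10 cultures for 0p5h against ctrl and below 0 in all 10 for 24h against 0p5h, and Havcr2 lies below 0 in all 10 for 24h against either set.

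Pvr and Cd274 had the closest courses among the 8 genes, with a Pearson correlation of 0.89 over the 30 libraries after the mean of each culture was subtracted. Pvr and Havcr2 followed at 0.7 and Cd274 and Havcr2 at 0.66, while Btla had no value above 0.44 with any of the others. These are descriptions over 10 cultures that share depth and base composition.

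The VISTA gene, Vsir, was lower in 24h than in 0p5h in 5 of 5 Cacnb3-/- cultures, as were 19.1% of all genes, and in 4 of 5 WT cultures. WT cultures had 178, 155, 118, 299 and 191 CPM in ctrl, 169, 158, 119, 307 and 156 in 0p5h and 148, 101, 128, 236 and 103 in 24h. Cacnb3-/- cultures had 194, 188, 125, 166 and 320 CPM in ctrl, 219, 220, 127, 166 and 321 in 0p5h and 185, 135, 72.8, 98.8 and 207 in 24h. The log2 fold change for 24h against 0p5h was -0.58 (SE 0.30, adjusted p = 0.326) in Cacnb3-/-, and -0.61 (SE 0.10, adjusted p = 0.00184) with the replicate block. With the block and the GC trend removed it was -0.44 (SE 0.10, adjusted p = 0.00942), Vsir exons holding 54% GC. In WT it was -0.34 (SE 0.29, adjusted p = 0.729), and -0.33 (SE 0.11, adjusted p = 0.0828) with the block. For 24h against ctrl in Cacnb3-/- the log2 fold change was -0.51 (SE 0.30, adjusted p = 0.459). The block gave -0.54 (SE 0.12, adjusted p = 0.0271), and -0.37 (SE 0.14, adjusted p = 0.160) with the GC trend also removed. Levels of Vsir overlapped between the genotypes in each set.

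**Figure D5:**
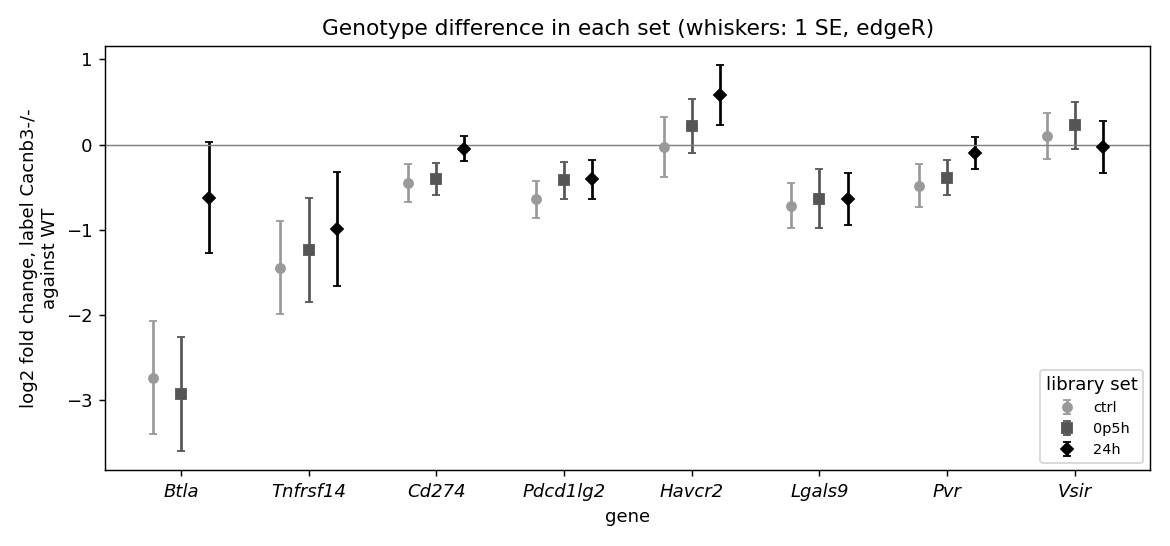
Log2 fold change of cultures labelled Cacnb3-/- against WT for the 8 genes in ctrl (light grey), 0p5h (dark grey) and 24h (black), with whiskers of 1 SE from edgeR. Btla goes from -2.74 in ctrl to -0.62 in 24h, Tnfrsf14, Pdcd1lg2 and Lgals9 lie below 0 in all sets, and Vsir lies near 0.

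The wider set of 58 partner and related genes gave few calls. It held receptors and ligands that pair with the 8 genes, other B7 ligands, inhibitory receptors of myeloid cells, phosphatases recruited by their cytoplasmic motifs and suppressive products. Of these, 42 to 45 could be tested in each comparison and none was called in any of the 12 by edgeR. The T cell receptors for these ligands were scarce, with Tigit at a mean of 0.158 RPKM, Ctla4 at 0.0916 RPKM and Cd96 at 0.0218 RPKM, none of which passed the filter on low counts. Pdcd1, which encodes PD-1 itself, averaged 7.1 RPKM and Lag3 0.547 RPKM. The most abundant gene was Ltbr among HVEM partners (20.7 RPKM) and Cd80 among PD-1 pathway partners (55.3 RPKM). Among TIM-3 and galectin partners it was Cd44 (59.3 RPKM), and in the list of PVR and nectin partners Nectin1 (12.8 RPKM). Selplg led the VISTA partners (324 RPKM) and Cd86 the other B7 ligands (66.8 RPKM). Sirpa led the inhibitory receptors of myeloid cells (134 RPKM), Ptpn6 the phosphatases (35.8 RPKM) and Tgfb1 the suppressive products (71.1 RPKM). Cd80 also binds PD-L1, and it lay between Pdcd1lg2 and Vsir in level.

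With the replicate block a few partner genes were called, which are named here after their values were seen. The shares of all genes called in the same fits were 0.581% for 0p5h against ctrl, 0.926% for 24h against ctrl and 1.78% for 24h against 0p5h in WT, and 0.643%, 1.11% and 2.88% in Cacnb3-/-. These can be set against 1 to 3 of the 43 or 44 partners tested. For 0p5h against ctrl it was Il10, an anti-inflammatory cytokine, with log2 fold changes of 1.08 (SE 0.21, adjusted p = 0.0122) in WT and 1.66 (SE 0.30, adjusted p = 0.0184) in Cacnb3-/-. For 24h against 0p5h in WT they were Ido2, a tryptophan-degrading enzyme, at 1.09 (SE 0.16, adjusted p = 0.00360) and Nt5e, the ecto-enzyme CD73 that makes adenosine, at -1.39 (SE 0.13, adjusted p = 0.000470). In Cacnb3-/- it was Cd160, another receptor for HVEM, at 1.24 (SE 0.39, adjusted p = 0.0357). For 24h against ctrl in WT they were Il10 at 1.48 (SE 0.25, adjusted p = 0.0121), Ido2 at 1.25 (SE 0.19, adjusted p = 0.00757) and Nt5e at -1.31 (SE 0.12, adjusted p = 0.00262). In Cacnb3-/- they were Il10 at 2.22 (SE 0.40, adjusted p = 0.0137) and Ido2 at 1.25 (SE 0.23, adjusted p = 0.0140). These called genes had low levels, with means of 1.18 RPKM for Il10, 0.908 for Ido2, 1.02 for Nt5e and 0.31 for Cd160. The lowest library of Cd160 had 0.0494 RPKM.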

How the data were processed

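Bulk RNA-seq of 30 BMDC libraries was analysed. Per the file headers and the study's methods, the authors aligned reads with STAR 2.4 and counted them per gene with featureCounts 1.5.1 without a strand option, and deposited raw read counts per gene. The count file's header names GRCm38 with Ensembl release 79, which was used here, whereas the methods name a later build. Overlapping antisense genes cannot be told apart. Libraries were grouped by name, since treatment entries contradict the names of the ctrl and 0p5h sets. A number shared in the names defined 10 cultures.

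Counts were analysed in R 4.3.3 with edgeR 4.0.16 (TMM scaling, filterByExpr by group, quasi-likelihood tests) with Benjamini-Hochberg adjustment across each comparison's tested genes. Genes were called at an adjusted p below 0.05 and at least 2-fold. The SE is the log2 fold change divided by the square root of F. CPM used TMM over all libraries, and RPKM the summed exon length. Depth was 8237393 to 32164225 counts per library, and exact Poisson 95% intervals cover counting error only.

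Members and gene lists were chosen with earlier results of these data known. The named genes were the 8 members, the 5 genes most like Btla, and listed partners that were called. Because the choice of Btla used these data, no p is given for it and the counts in the results cover the other 7 members. The values that chose the other members are not known here.

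The names share numbers across sets, and the labels do not say what a number marks. Deviations from group means correlated above 0.1 in 29 of 30 pairs (median 0.609, lowest 0.0746, 13755 genes). Correlations with another culture also passed 0.1 and reached 0.464, so that cut does not show that a number marks a pair. In Cacnb3-/- p974s843, ctrl and 24h correlated at 0.0746, below the highest value with another culture, 0.399. In every other pair the value with another culture was the lower. Blocked values, which assume pairing by number, are printed beside results. For 24h against ctrl in Cacnb3-/-, which holds the lowest pair, they are given for called partner genes and for Vsir and Havcr2. Alternatives were DESeq2 1.42.0, its size factors in edgeR, no low-count filter, 1 fit of all libraries, removal of the GC trend, the block, and leaving out each culture. limma-voom (limma 3.58.1) and lane as a covariate were added after seeing the data. The script was tested on simulated data. Identifiers with a symbol numbered 38984 of 43629.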

Additional observations from a re-analysis of the deposited data

Results flagged for a closer look

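In groups of 5 cultures, a value was marked where its gap to the nearest other value, divided by the range of the group, exceeded 0.71. Of 48 groups tested 3 were marked, where chance marks about 1 in 20. Tnfrsf14 in culture p974s865, labelled Cacnb3-/-, was 20.7 CPM in 0p5h, with the next culture at 6.99 CPM (gap over range 0.725), and 18.2 CPM in 24h, with the next at 6.26 CPM (0.742). Vsir in WT culture p974s856 was 307 CPM in 0p5h, with the next at 169 CPM (0.734).

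At 24h Btla was below ctrl and 0p5h in every WT culture and above both in every culture labelled Cacnb3-/-. Counting intervals of ctrl and 24h overlapped in most Cacnb3-/- cultures and in WT p974s864. From 0p5h to 24h its mean log2 change was -1.19 in WT and 0.962 in cultures labelled Cacnb3-/-, and from ctrl to 24h it was -1.3 and 0.844. The difference was not tested on independent data. Btla was chosen with this pattern known, so its calls in the fits counted in the next part are no test of it.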

How the results depend on the processing

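Of 204 counts of called genes among the 8, 190 were unchanged and 14 moved, each from 0 to 1. In 12 of the 14 the gene was Btla, which was chosen on these values, so those counts are no test of it and nothing is read from them. With the replicate block, and with the block and the GC trend removed, the gene was Btla in WT for 24h against ctrl (1 and 1) and 24h against 0p5h (1 and 1), and for the difference between genotypes in 24h against ctrl (1 and 1) and 24h against 0p5h (1 and 1). In Cacnb3-/- 24h against 0p5h gave 1 (Btla) with the block alone. DESeq2 gave 1 (Btla) between genotypes in ctrl and 1 (Btla) in 0p5h. Leaving out 1 culture, the count ran from 0 to 1 between genotypes in ctrl (Btla, without WT p974s864) and in 24h (Tnfrsf14, without Cacnb3-/- p974s865), and for 24h against 0p5h in WT (Pvr, without p974s864). It was 0 in the other comparisons. The cause was not tested.

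Of 585 log2 fold changes recomputed for 37 gene and comparison pairs of the other 7 genes, all 585 kept direction and 583 their side of the calling threshold, the exceptions being Tnfrsf14 and Pvr as above. Of 145 for Btla, which has no threshold here, 144 kept direction. Btla between genotypes in 24h ran from -1.01 to 0.055051 over the fits that left out 1 culture, turning positive without WT p974s855. The replicate block for 24h against ctrl in Cacnb3-/- gave Vsir -0.54 (adjusted p = 0.0271 by edgeR). At an adjusted p below 0.05 with 2-fold, the block called none of the other 7 genes. Over all genes, edgeR, DESeq2 and the block called 23, 48 and 76 genes for 0p5h against ctrl, 2, 27 and 122 for 24h against ctrl and 82, 140 and 228 for 24h against 0p5h in WT. In Cacnb3-/- they called 37, 54 and 82, then 0, 45 and 138, then 84, 194 and 367. Between genotypes edgeR called 0 and DESeq2 122, 68 and 539 in ctrl, 0p5h and 24h. Without WT p974s864 edgeR called 249 genes between genotypes in ctrl and 733 in 24h, and without Cacnb3-/- p974s865 it called 1129 in 24h. Btla rested on as few as 7 reads in a library.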
